A study of Mus musculus with 6 samples.

Results

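The 10 genes described here mark macrophages or encode the C1q part of complement: C1qa, C1qb, C1qc, Csf1r, Tyrobp, Cd14, Mrc1, Cd68, Adgre1 and Aif1. They were taken by symbol from a table of 23718 mouse genes, and all 10 were listed. RNA had been sequenced from mouse incisor, a tooth that grows throughout life, in mice 1 month of age on the C57BL/6 strain by the labels. Gli1-CreER;tdT mice gave 3 samples of the mesenchymal stem cell (MSC) region, and Axin2-CreER;tdT mice gave 3 of the transit amplifying cell (TAC) region. In both, tamoxifen let the driver switch on the red reporter tdT a day before the tooth was frozen, and the reporter-positive region was cut out of sections with a laser. The drivers act in cells that express Gli1 or Axin2, so macrophages were not what the laser was aimed at, and a cut region can hold any cell lying in it. The groups therefore differ in driver as well as in region, and neither had a sample without the driver. The methods give 3 mice a group and a mixed genetic background, but the labels tie no sample to a mouse, so p-values measure the spread between these samples, which may be partly technical.

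Macrophages are phagocytes that populate nearly every tissue, dental pulp included. They depend on the receptor CSF1R, which binds the growth factors CSF1 and IL34. They are also the main source of C1q, the recognition molecule of the classical complement pathway. C1q is assembled from the chains C1QA, C1QB and C1QC. It binds the proteases C1R and C1S, which cleave C4 and C2, while SERPING1 inhibits those proteases. C1q on its own also tags dying cells for uptake.

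Values are normalized read numbers, scaled per library by the authors so that libraries can be compared for a gene. They are not divided by gene length. A run of 3 values is always in the order of replicates 1 to 3. The libraries held 20203159 to 108156380 estimated reads. Replicate 3 stood apart in both groups. It was the most deeply sequenced, yet 42.6% of genes in MSC replicate 3 and 27.8% in TAC replicate 3 had 0 estimated reads, against 6.38% to 7.88% in the other 4 libraries. Differences for the 10 genes are therefore also given within replicates 1 and 2 and within replicate 3. In replicate 3 each group has 1 library, so no test could be made there. Of the driver genes, Gli1 was 256, 245 and 422 in MSC against 153, 141 and 396 in TAC, and Axin2 was 58.3, 48.0 and 12.01 against 56.8, 63.9 and 34.1. The groups overlapped for both.

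In limma, over 6 libraries, 0 of the 9 macrophage and C1q genes that could be tested passed an adjusted p of 0.05, where 0.422% of all 15391 genes tested did. Cd14 averaged 0.970 and fell under the minimum mean of 1. At an unadjusted p under 0.05 there was 1 gene, Mrc1, where 11.9% of all genes passed. Csf1r, Mrc1, C1qc and Aif1 were higher in every MSC library than in any TAC library. These are 4 of the 9 genes, while 12.2% of all genes tested had groups apart in that direction. None of the 9 had groups apart with TAC higher, which held for 12.3% of all genes tested. The plot of values by library shows the 10 genes side by side.

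**Figure D1:**
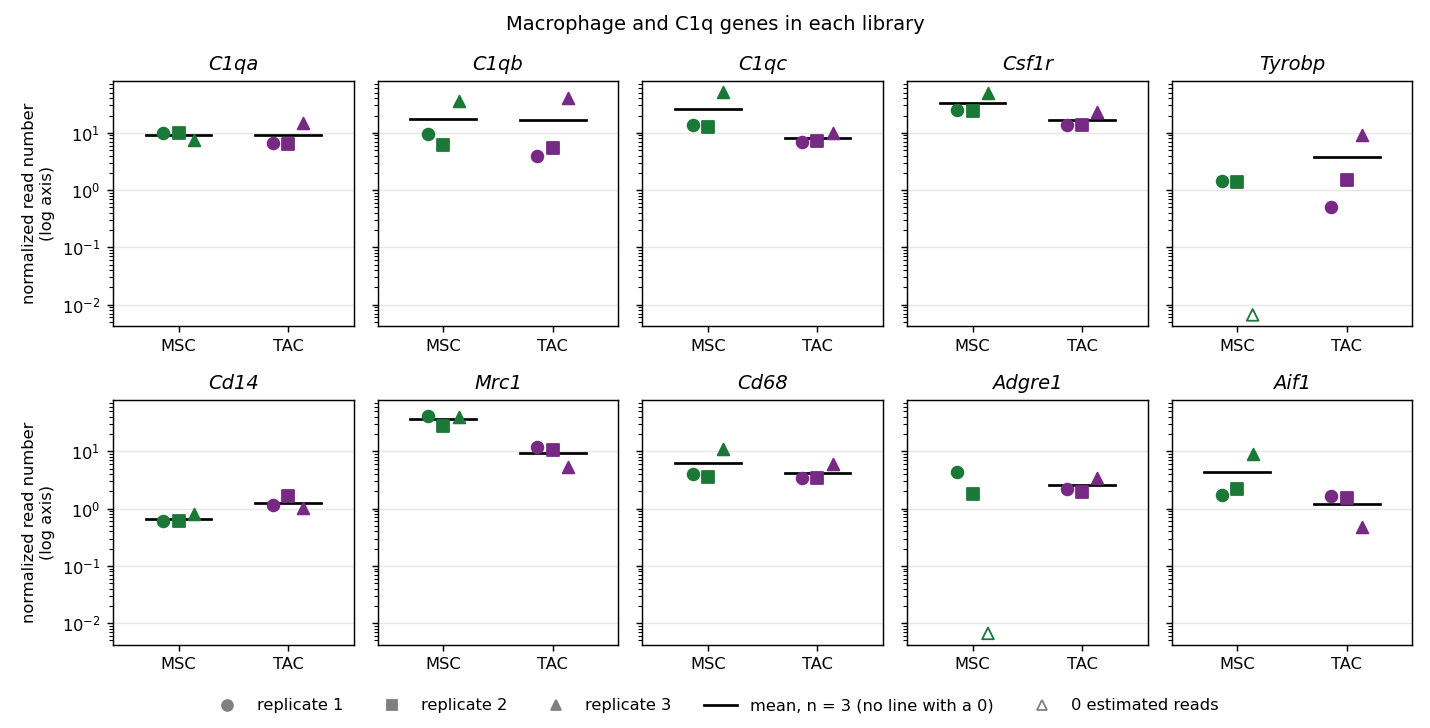
Normalized read number (log axis) of each gene in the 3 MSC and 3 TAC libraries, with a symbol for each replicate and a line at the group mean. A group with a library at 0 estimated reads has no line. The groups do not overlap for Csf1r, Mrc1, C1qc and Aif1 (MSC higher) and Cd14 (TAC higher), and Tyrobp and Adgre1 had 0 estimated reads in MSC replicate 3, shown as open triangles at the lowest value of that library.

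The C1q chain genes lie side by side on chromosome 4 of mm10, on the minus strand, within 18675 bases. C1qb spans 136880129 to 136886187, C1qc 136889804 to 136893065 and C1qa 136895917 to 136898803. The gap from C1qb to C1qc is 3616 bases and that from C1qc to C1qa is 2851 bases. C1qa was 10.02, 9.74 and 7.39 in MSC against 6.59, 6.33 and 14.8 in TAC. Replicates 1 and 2 were lower in TAC and replicate 3 was higher, so the groups overlapped. The difference, TAC minus MSC on the log2(value + 1) scale, was -0.06 (SE 0.47, limma adjusted p 0.982). It was 0.014, 0.11 and 0.14 without MSC replicate 1, TAC replicate 1 and TAC replicate 2. C1qb was 9.59, 6.14 and 36.5 in MSC and 3.98, 5.54 and 40.6 in TAC. Replicate 3 was far above replicates 1 and 2 in both groups, by 4.64-fold over their mean in MSC and 8.52-fold in TAC. Its difference was -0.36 (SE 0.95, limma adjusted p 0.936), and 0.35, 0.22 and 0.023 without MSC replicate 3, TAC replicate 1 and TAC replicate 2.

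C1qc was the chain with groups apart. It was 13.6, 12.5 and 51.1 in MSC, a mean of 25.7 ± 22.003 (SD, n = 3), and 6.79, 7.22 and 9.97 in TAC, a mean of 7.99 ± 1.73 (SD, n = 3). The mean was 3.22-fold higher in MSC, and MSC replicate 3 alone lay 3.92-fold above the mean of MSC replicates 1 and 2. The log2 difference was -1.29 (SE 0.58, limma adjusted p 0.446). Without MSC replicate 3 it was -0.66. The SD of the MSC libraries was larger than the difference between the group means.

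Within replicates 1 and 2 the chain genes were lower in TAC together. Their log2 differences there were -0.54 for C1qa, -0.61 for C1qb and -0.81 for C1qc, with limma adjusted p-values of 0.0283, 0.0441 and 0.000859 in a fit to those 4 libraries. In that fit 26.0% of all genes were called lower in TAC. In replicate 3 the differences were 0.91, 0.15 and -2.25 for the chains in the same order. The order of the chains also changed between the kinds of library. Per kilobase of exon, C1qa held 37.8% to 46.9% of the C1q signal in replicates 1 and 2, and 10.6% and 25.1% in replicate 3 of MSC and TAC. C1qb held 26.3% to 34.6% in replicates 1 and 2, and 50.0% and 65.8% in replicate 3. C1qc held 25.1% to 30.2% in replicates 1 and 2, 39.4% in MSC replicate 3 and 9.11% in TAC replicate 3. The highest chain was 1.37 to 1.803 times the lowest in replicates 1 and 2, 4.73 times in MSC replicate 3 and 7.22 times in TAC replicate 3. Each chain had at least 181 estimated reads in every library. Reads without molecular identifiers are not independent molecules, so floors set from reads cover counting error only.

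**Figure D2:**
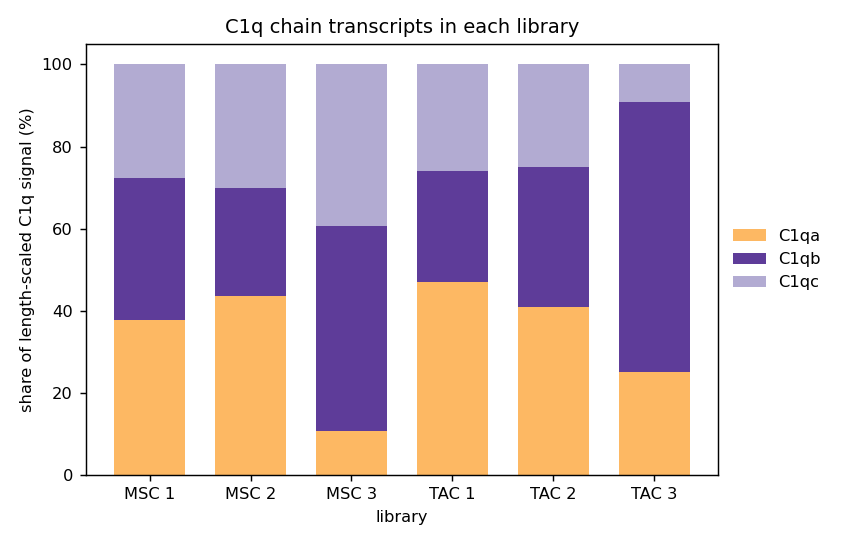
Share (%) of the length-scaled C1q signal held by C1qa, C1qb and C1qc in each of the 6 libraries, as stacked bars that add to the whole. The 4 libraries of replicates 1 and 2 have shares of 25.1% to 46.9%, while C1qb takes 50.0% and 65.8% in replicate 3 of MSC and TAC.

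Upstream sequence is shown for the 3 of 5 windows examined that hold the motif described here, those of C1qb, C1qc and Mrc1. The bases come from RefSeq promoter windows on GRCm38.p6, the assembly of mm10. They are written 5′ to 3′ on the strand of the gene and stop before the first base that GENCODE annotates as exon. Capitals mark AGGAAGT or its reverse complement, the letters at the heart of sites bound by PU.1, the myeloid transcription factor encoded by Spi1. The motif was chosen after these sequences were seen, and both strands were searched.
C1qb, chr4:136886201-136886450, minus strand: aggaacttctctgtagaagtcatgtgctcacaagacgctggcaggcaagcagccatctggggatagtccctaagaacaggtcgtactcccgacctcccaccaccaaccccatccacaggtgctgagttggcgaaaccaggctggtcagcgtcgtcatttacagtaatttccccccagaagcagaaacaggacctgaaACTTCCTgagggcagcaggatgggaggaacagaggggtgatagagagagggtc
C1qc, chr4:136893066-136893164, minus strand: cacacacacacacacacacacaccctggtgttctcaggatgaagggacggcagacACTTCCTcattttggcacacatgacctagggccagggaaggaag
Mrc1, chr2:14229164-14229391, plus strand: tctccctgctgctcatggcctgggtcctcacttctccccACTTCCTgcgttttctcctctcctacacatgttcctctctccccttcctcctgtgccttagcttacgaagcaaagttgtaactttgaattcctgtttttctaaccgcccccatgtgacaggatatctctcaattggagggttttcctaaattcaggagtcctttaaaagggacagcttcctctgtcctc

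The motif lies 53 bases before the RefSeq start in C1qb, 195 bases before it in C1qc and 211 bases before it in Mrc1, in each case as the reverse complement. Of these genes, C1qc and Mrc1 had groups apart and C1qb did not. Windows of 99 to 250 bases were examined for 5 of the 10 genes, and those of Cd68 and Aif1 did not hold it. Of all 32851 windows of 250 bases in the table, exons included, 7.69% held it. A match to these letters is a description of the window and shows nothing of binding.

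Csf1r (chromosome 18, 61105572 to 61132149, plus strand) encodes the receptor that macrophages need to survive. It was 24.7, 24.2 and 48.95 in MSC, a mean of 32.6 ± 14.1 (SD, n = 3). In TAC it was 13.7, 13.7 and 23.0, a mean of 16.8 ± 5.36 (SD, n = 3). Replicate 3 was the highest library of each group, and the lowest MSC value lay just above the highest TAC value. The mean was 1.94-fold higher in MSC, with a log2 difference of -0.88 (SE 0.40, limma adjusted p 0.450). Replicates 1 and 2 gave -0.79 and replicate 3 gave -1.06, and without MSC replicate 3 it was -0.55. In the fit to replicates 1 and 2 the limma adjusted p was 3.87e-05, where 26.0% of all genes were called lower in TAC. Those replicates lay 1.02-fold apart in MSC and 1.001-fold apart in TAC, a spread that may be partly technical. The gene overlaps Hmgxb3 and Mir6983 in the annotation, and without knowledge of strand in the counting their reads cannot be told apart where they overlap. Whether fewer macrophages or less RNA per macrophage lay behind a lower value cannot be told apart in such bulk samples, for this gene or any other.

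Mrc1 (chromosome 2, 14229392 to 14332057, plus strand) encodes the mannose receptor CD206, an endocytic receptor typical of tissue-resident macrophages and also made by some endothelial cells. It was 40.8, 28.1 and 39.0 in MSC, a mean of 35.98 ± 6.87 (SD, n = 3), and 12.04, 10.5 and 5.28 in TAC, a mean of 9.29 ± 3.55 (SD, n = 3). Every MSC library was more than 2 times any TAC library. The mean was 3.87-fold higher in MSC and the log2 difference was -1.90 (SE 0.39, unadjusted p 0.00171, limma adjusted p 0.123). This was the gene of the 10 with the smallest p-value. With the replicate number as a block its limma adjusted p was 0.0795. In the fit to replicates 1 and 2 it was 1.27e-08, where 26.0% of all genes were called lower in TAC. In replicate 3 the difference was -2.67, and in replicates 1 and 2 it was -1.51. The microRNA gene Mir511 lies inside it.

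Tyrobp (chromosome 7, 30413760 to 30417585, plus strand) encodes DAP12, the adaptor through which TREM2 and related receptors signal. Replicates 1 and 2 of MSC had 1.44 and 1.39, MSC replicate 3 had 0 estimated reads, and TAC had 0.504, 1.49 and 9.22. The groups overlapped in replicates 1 and 2, and replicate 3 held both the lowest and the highest library. Its 2432 estimated reads in TAC replicate 3 stood against 0 of 59793645 in MSC replicate 3, which by counting error alone allows up to 3 reads. No fold is given, since MSC replicate 3 also had 0 reads for genes well detected in shallower libraries, such as Cd55, a complement regulator with 329 and 292 reads in MSC replicates 1 and 2. Over 6 libraries the log2 difference was 0.90 (SE 0.83, limma adjusted p 0.728), and in replicates 1 and 2 it was -0.32. Leaving out MSC replicate 3 gave 0.48, leaving out TAC replicate 1 gave 1.48, and the gene was too low to be tested once TAC replicate 3 was left out.

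Cd14 (chromosome 18, 36725074 to 36726736, minus strand) encodes the coreceptor that hands bacterial lipopolysaccharide to TLR4. Its mean over the 6 libraries was the lowest of the 10 genes per kilobase, and it was the one of the 10 with every TAC library above every MSC library. It was 0.613, 0.609 and 0.792 in MSC, a mean of 0.671 ± 0.105 (SD, n = 3), and 1.14, 1.65 and 1.02 in TAC, a mean of 1.27 ± 0.339 (SD, n = 3). The mean was 1.89-fold higher in TAC and the groups did not overlap. The reads behind these values numbered 20 and 22 in MSC replicates 2 and 1, and 118 in MSC replicate 3, against 51, 68 and 267 in TAC. It was left out of the fit by its level. In a fit to all listed genes its log2 difference was 0.43 (SE 0.42, limma adjusted p 0.823), a value that the added pseudocount of 1 holds close to 0 for so low a gene.

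Cd68 (chromosome 11, 69664213 to 69666153, minus strand) encodes a lysosomal glycoprotein used as a general macrophage stain. It was 3.997, 3.62 and 10.8 in MSC and 3.44, 3.38 and 5.94 in TAC. Within each number MSC was higher, but MSC replicates 1 and 2 lay below TAC replicate 3. The log2 difference was -0.34 (SE 0.57, limma adjusted p 0.885), and 0.094 without MSC replicate 3. Adgre1 (chromosome 17, 57358686 to 57483529, plus strand) encodes F4/80, the classical surface marker of mouse macrophages. MSC replicate 3 had 0 estimated reads, the other MSC libraries had 4.37 and 1.797, and TAC had 2.21, 1.94 and 3.45. TAC replicate 3 had 908 reads, and no fold over the 0 of MSC replicate 3 is given, as for Tyrobp. The log2 difference was 0.49 (SE 0.71, limma adjusted p 0.859) over 6 libraries, -0.33 in replicates 1 and 2 and -0.16 without MSC replicate 3.

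Aif1 (chromosome 17, 35170991 to 35176068, minus strand) encodes IBA1, a calcium-binding protein of the macrophage cytoskeleton. It was 1.71, 2.23 and 9.07 in MSC, a mean of 4.34 ± 4.11 (SD, n = 3), and 1.64, 1.51 and 0.485 in TAC, a mean of 1.21 ± 0.633 (SD, n = 3). The groups did not overlap, but MSC replicate 1 was only just above TAC replicate 1. The log2 difference was -1.05 (SE 0.67, limma adjusted p 0.605), made of -0.20 in replicates 1 and 2 and -2.76 in replicate 3. Without MSC replicate 3 it was -0.46.

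**Figure D3:**
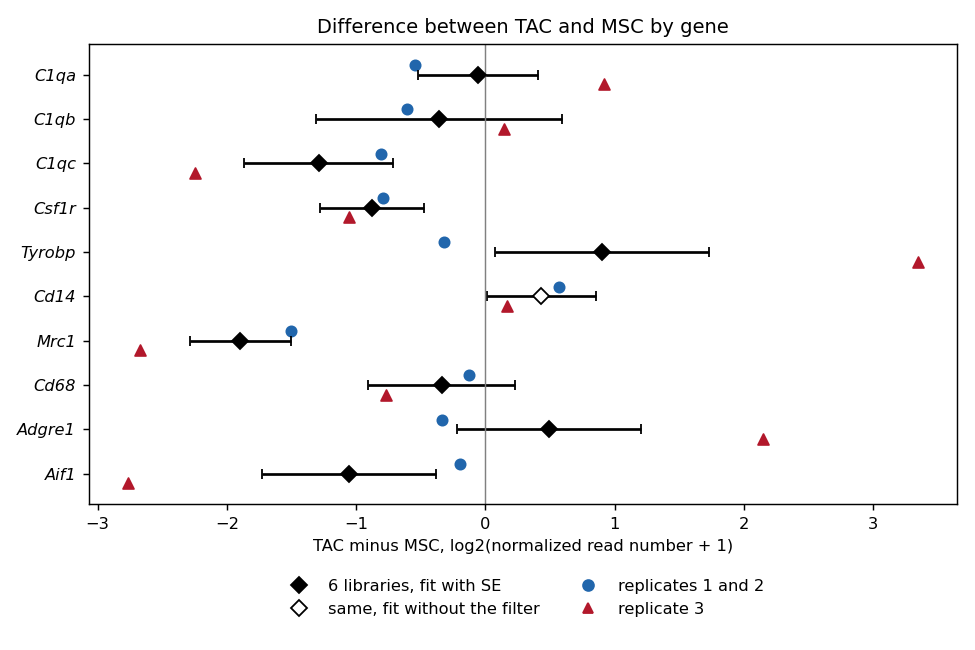
Difference between TAC and MSC on the log2(normalized read number + 1) scale for the 10 genes. Diamonds with bars are the fit to 6 libraries with its SE (open for Cd14, from the fit without a filter), circles are replicates 1 and 2, and triangles are replicate 3. Csf1r, Mrc1, C1qc, Cd68 and Aif1 lie below 0 by all 3 measures, and the other genes except Cd14 change side between the kinds of library.

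Set side by side, 9 of the 10 genes were lower in TAC than in MSC in replicate 1, 7 in replicate 2 and 5 in replicate 3. The median log2 difference of the 9 genes tested was -0.36, against 0.03 over all genes tested. Replicates 1 and 2 gave a median of -0.54 and replicate 3 one of -0.77, where the medians of all genes were -0.05 and 0.04. In the fit to replicates 1 and 2, 5 of the 10 genes were called, all lower in TAC (C1qa, C1qb, C1qc, Csf1r and Mrc1), where 26.0% of all genes were called in that direction. With the replicate number as a block, Csf1r, Mrc1 and C1qc had unadjusted p-values under 0.05, which made 3 genes in place of 1, while the share of all genes tested was 20.4% in place of 11.9%. None (0) passed the adjusted threshold with the block, where 1.49% of all genes did. The count at an unadjusted p under 0.05 was 2 without MSC replicate 2, where 1362 of 15160 genes passed, and 2 without TAC replicate 3, where 1913 of 15523 did.

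Levels can be compared between genes only per length. Per kilobase of exon and averaged over the 6 libraries, C1qb was highest at 15.7, followed by C1qa at 8.79, C1qc at 8.73, Csf1r at 4.28 and Cd68 at 4.14. Mrc1 at 3.55, Tyrobp at 3.51, Aif1 at 1.81, Adgre1 at 0.709 and Cd14 at 0.560 came after them. In replicates 1 and 2 of both groups C1qa was above C1qb, at 9.63 against 8.82 and 9.36 against 5.65 in MSC and 6.34 against 3.66 and 6.09 against 5.09 in TAC. C1qb led through replicate 3, with 33.6 in MSC and 37.3 in TAC, and the mean of Tyrobp rests on 13.8 in TAC replicate 3. The ranges over libraries overlapped for all 9 pairs of neighbours in this order. C1qb and C1qc were above Csf1r per kilobase in 6 of 6 libraries and C1qa in 5.

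Ratios between genes within a library do not depend on how libraries were scaled. They are ratios of values not divided by length, so each is compared only between libraries. They were taken to Ptprc, which encodes CD45, the surface phosphatase of all leukocytes. This comparison was added after the values were seen and was not tested. Ptprc itself was 10.4, 13.3 and 13.4 in MSC and 4.23, 5.49 and 5.09 in TAC. Csf1r was 2.38, 1.82 and 3.66 times Ptprc in MSC and 3.25, 2.50 and 4.53 times in TAC. The ratio was the higher in TAC for each replicate number, although Csf1r itself was the lower there. The 3 C1q genes summed to 3.19, 2.14 and 7.11 times Ptprc in MSC and 4.11, 3.48 and 12.8 times in TAC. Mrc1 was 3.93, 2.12 and 2.92 times Ptprc in MSC and 2.85, 1.92 and 1.04 times in TAC, the lower in TAC for each number. The ratio of Mrc1 to Csf1r was 1.65, 1.16 and 0.797 in MSC and 0.877, 0.768 and 0.230 in TAC. The groups overlapped in each of these ratios.

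Other macrophage genes were compared from a list of 24, of which 23 were listed and 22 tested. In limma 0 of them passed the adjusted threshold, and 4 of the 22 had an unadjusted p under 0.05, all lower in TAC, where 11.9% of all genes passed in either direction. Of the 22 genes 19 were lower in TAC, with a median of -0.85. In replicates 1 and 2, and again in replicate 3, 18 of 22 were lower, with medians of -0.91 and -1.08. Groups were apart with MSC higher for 8 genes and with TAC higher for 1, against 12.2% and 12.3% of all genes. Siglec1, a sialic acid receptor of resident macrophages, was 6.64, 5.62 and 18.2 in MSC and 1.05, 2.35 and 2.13 in TAC, a log2 difference of -1.83 (SE 0.60, adjusted p 0.288). Spi1, which encodes PU.1, was 3.09, 3.19 and 9.06 in MSC and 0.744, 1.53 and 0.140 in TAC, at -1.70 (SE 0.62, adjusted p 0.343). Both were lower in every TAC library than in any MSC library.

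Ptprc differed by -1.17 (adjusted p 0.310), the cysteine protease gene Ctss by -1.27 (adjusted p 0.521) and the lysosomal gene Laptm5 by -1.10 (adjusted p 0.420). Itgam, which encodes CD11b, differed by -1.04 (adjusted p 0.494). Of these, Ctss was -0.41 in replicates 1 and 2 and -2.99 in replicate 3, while Ptprc, Laptm5 and Itgam ran from -0.96 to -1.24 in both kinds of library. Pf4, a chemokine gene of platelets and resident macrophages, differed by -0.86 (adjusted p 0.563). These 5 too had groups apart with MSC higher. Mertk, a receptor for dying cells, had groups apart with TAC higher, at 19.5, 18.8 and 2.24 in MSC and 28.8, 23.3 and 31.8 in TAC. Its log2 difference was 1.39 (SE 0.72, adjusted p 0.510), and the gap in replicates 1 and 2 was 0.42.

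Of the ligands of these receptors, Csf1 was 18.8, 17.8 and 14.6 in MSC and 12.9, 10.8 and 25.4 in TAC, with a log2 difference of -0.14 (SE 0.40, limma adjusted p 0.940). By kind of library it was -0.59 (replicates 1 and 2) and 0.75 (replicate 3). Il34 had 0 reads in replicate 3 of both groups, and its other values were 0.581 and 1.45 in MSC and 0.482 and 0.0959 in TAC. It was too low to be tested. Lbp, which encodes the lipopolysaccharide carrier that works with CD14, was 7.78, 5.94 and 3.73 in MSC and 0.876, 1.75 and 0.428 in TAC. Its groups were apart, and its difference of -1.76 (SE 0.55, adjusted p 0.264) went against the direction of Cd14. Tlr4 and Ly96, which encode the receptor complex that CD14 serves, had 0 reads in MSC replicate 3, and Tlr4 had 0 in TAC replicate 3 as well. In MSC replicate 3 this also held for Trem2, the receptor that pairs with TYROBP, which was 0.586 and 1.85 in the other MSC libraries and 0.547, 0.288 and 5.75 in TAC. Tyrobp and Trem2 thus had their lowest value in the same library, MSC replicate 3, and their highest in TAC replicate 3. Of 8 ligand and partner genes 6 were tested, 0 passed the adjusted threshold (0.422% of all genes) and 1, Lbp, had an unadjusted p under 0.05 (11.9% of all genes). Their median was -0.39. Syk, a kinase downstream of TYROBP, and Tlr2, a receptor that also uses CD14, differed by -0.46 (adjusted p 0.743) and -0.32 (adjusted p 0.880), with groups that overlapped.

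Complement genes beyond C1q were mostly lower in TAC, by 9 of 13 tested. Of 24 further complement genes 18 were listed and 13 tested, with a median log2 difference of -1.26. In limma 0 passed the adjusted threshold, and 6 of the 13 had an unadjusted p under 0.05, all lower in TAC, where 11.9% of all genes passed in either direction. Groups were apart with MSC higher for 7 and with TAC higher for 1, against 12.2% and 12.3% of all genes. C1s1, the mouse gene for C1S, was 56.5, 60.8 and 164 in MSC and 14.9, 15.6 and 26.6 in TAC, at -2.11 (SE 0.47, adjusted p 0.145). C1ra, for C1R, was 42.2, 40.5 and 54.7 in MSC and 10.8, 14.3 and 18.9 in TAC, at -1.60 (SE 0.32, adjusted p 0.111). Both partners of C1q were thus more than 2 times as high in any MSC library as in any TAC library.

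Serping1, the inhibitor of C1R and C1S, was 34.99, 37.5 and 99.8 in MSC and 5.01, 7.74 and 14.4 in TAC, at -2.48 (SE 0.53, adjusted p 0.134). With the replicate number as a block, Serping1 and C1s1 passed, each with an adjusted p of 0.0442, and they were 2 of the 13 genes, where 1.49% of all genes passed. C4b, the substrate of C1S, differed by -2.26 (adjusted p 0.305). Cd46 and Cr1l, membrane regulators of complement, differed by -1.37 (adjusted p 0.366) and -1.26 (adjusted p 0.453), and Cr1l was -0.48 in replicates 1 and 2 and -2.84 in replicate 3. These 3 had groups apart with MSC higher. Cd59a, which blocks the membrane attack complex, was higher in TAC, at 0.73 (adjusted p 0.567), with groups apart. C3, the central component, was under 1 in every library and was not tested.

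**Figure D4:**
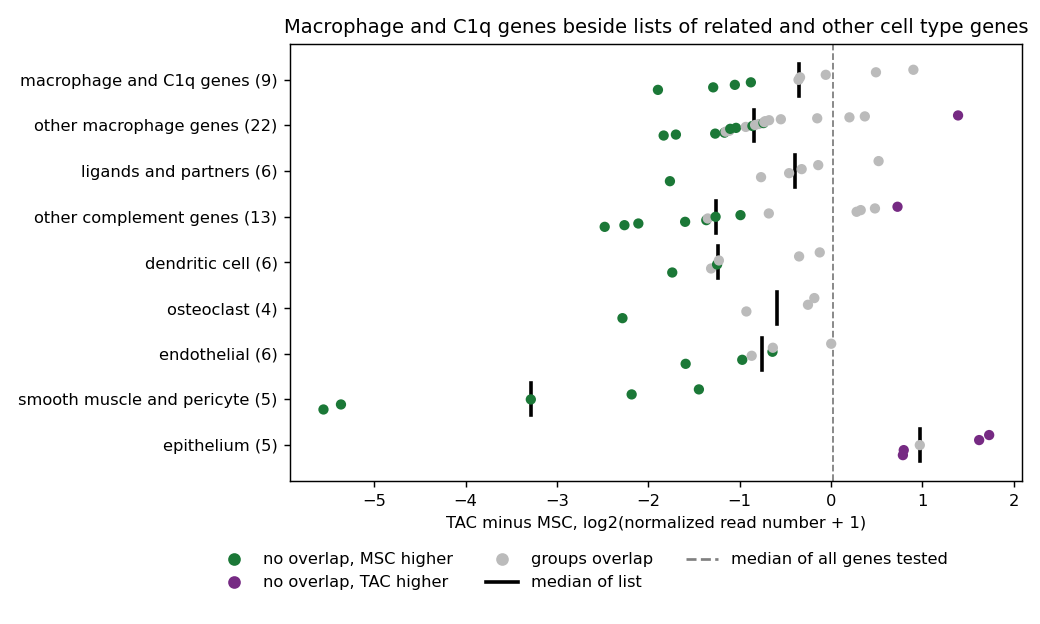
TAC minus MSC on the log2(normalized read number + 1) scale for each tested gene of 9 lists, with the number tested in brackets. Black bars are list medians and the dashed line is the median of all genes tested. The macrophage and C1q genes spread on both sides of 0, and the medians of the other macrophage and complement lists lie at -0.85 and -1.26. The smooth muscle and pericyte list has the lowest median, at -3.29, though not all of its genes lie below those of other lists.

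Markers of other cells that a cut region can hold are given beside these results, in which their part was not tested. Their counts stand against 11.9% of all genes at an unadjusted p under 0.05, and 12.2% and 12.3% with groups apart and MSC or TAC higher. The adjusted threshold was passed by 0.422% of all genes, and by 1.49% with the replicate block. The summed value of 5 smooth muscle and pericyte genes, led by Rgs5, was 797 to 1416 in MSC and 86.0 to 124 in TAC, and 4 of the 5 passed the adjusted threshold with MSC higher. With the replicate block 4 passed as well, but Acta2 was lost (adjusted p 0.0455 without and 0.0701 with the block) and Cspg4 gained (0.179 and 0.0442). The 6 endothelial genes, led by Cdh5, summed to 148 to 210 in MSC and 74.7 to 95.3 in TAC, with 0 of 6 called, 2 at an unadjusted p under 0.05 and 3 with groups apart and MSC higher. The 10 macrophage and C1q genes summed to 90.3 to 204 in MSC and 52.1 to 114 in TAC, so the groups overlapped, while the other macrophage genes summed to 163 to 360 and 96.4 to 175. In MSC replicate 3, 2 genes of each of these lists had 0 reads. Dendritic cell genes, led by Cd74, summed to 56.4 to 422 in MSC and 24.96 to 74.5 in TAC, with 0 of 6 tested genes called or at an unadjusted p under 0.05. All 6 were lower in TAC, with a median of -1.24, and 2 had groups apart with MSC higher. The median was -0.62 in replicates 1 and 2 and -2.15 in replicate 3, and the sum of 422 was that of MSC replicate 3.

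The 5 osteoclast genes listed, led by Ctsk, summed to 31.1 to 68.3 in MSC and 17.3 to 24.1 in TAC, while Calcr, Ocstamp and Dcstamp were not among the genes listed. Of 4 osteoclast genes tested, 1 (Mmp9, at -2.28) had groups apart with MSC higher and an unadjusted p under 0.05, and 0 were called. Of all genes, 12.2% had groups apart that way and 11.9% had an unadjusted p under 0.05. These shares apply to the lymphocyte and glial lists too. Lymphocyte genes, led by Cd4, summed to 6.72 to 32.6 and 1.53 to 2.23. Of 3 tested, 1 had groups apart with MSC higher and an unadjusted p under 0.05 (Cd4), and 0 were called. Neutrophil genes, led by S100a9, summed to under 4 in every library, and all 5 of those listed had 0 reads in MSC replicate 3. Red blood cell genes, led by Hba-a2, summed to 37.2 to 78.96 and 56.3 to 75.8, and mast cell genes, led by Kit, to 8.31 to 16.3 and 8.63 to 13.7. Epithelial genes, led by Amelx, summed to 112 to 2528 and 909 to 2252. The other 4 epithelial genes (Krt14, Krt5, Epcam and Cdh1) had groups apart with TAC higher, with 0 of 5 called and 1 at an unadjusted p under 0.05. Of 3 glial genes tested, 2 had groups apart with MSC higher, 0 were called and 1 had an unadjusted p under 0.05. The 9 dental mesenchyme genes, led by Col1a1, summed to 3117 to 11394 and 9406 to 13530. Of these 0 were called and 1, Mki67, a gene of dividing cells, had an unadjusted p under 0.05, at 1.97 (adjusted p 0.361, and 0.0442 with the replicate block). Such sums are not divided by length and are compared only between libraries.

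Outside these lists, the 5 genes whose log2 values lay closest to the mean profile of the 10 genes over the 6 libraries were Prr14, Zfp740, Limk2, Uimc1 and Suco, with root mean square differences of 0.049 to 0.081 on the log2 scale among 7791 genes compared, predicted genes and clone names left out. Prr14, for example, was 23.7, 21.3 and 29.5 in MSC and 15.8, 16.5 and 25.1 in TAC. The 10 genes themselves lay farther from their own mean profile, from 0.28 for Cd68 and 0.29 for Csf1r to 0.95 for Adgre1 and 1.06 for Tyrobp.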

How the data were processed

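Laser-captured incisor mesenchyme was sequenced in 3 MSC and 3 TAC samples. The submitters' processing notes name CASAVA 1.8.2, TopHat2 2.0.8, Partek and mm10. The methods state that reads were trimmed, aligned and normalized as RPKM. The deposited signal values, normalized by the authors, showed no division by gene length and were therefore used as library-scaled read numbers. How reads were counted, and whether strand was used, is not given in the sources used here. Read numbers were estimated from the step between low values, of which 83.3% to 96.6% per library were whole within 0.1, so they are approximate. Intervals and floors (3 reads) cover counting error only.

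Genes with a mean of at least 1 (15391 of 23718) were compared as log2(value + 1) with limma 3.58.1 in R 4.3.3, with group as the only term, a variance trend and Benjamini-Hochberg adjustment over all genes tested. The pseudocount of 1 understates differences of low genes. The test was checked on simulated data that did not hold the deviation of replicate 3, so the check does not cover it. Coordinates are those of the deposited table with the end lowered by 1. Exon lengths came from GENCODE M21, in which 94.6% of symbols were found and 90.7% of genes, and 7 of the 10 described, had the same coordinates (not Csf1r, Adgre1 and Cd14). RefSeq promoter windows were matched for 5 of the 10 genes. The members and gene lists were chosen with earlier results of these data known, so no list was tested as a set.

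Named in the text are the 10 genes, up to 8 genes of each related list (those with non-overlapping groups and the largest difference, then the highest level), the highest gene of each cell type list and the 5 nearest profiles among genes outside the lists with a mean of at least 10, without predicted genes and clone names. C3, Gli1, Axin2, Acta2, Cspg4, Cd55, Mmp9, Mki67, Krt14, Krt5, Epcam, Cdh1 and others named outside that rule were chosen after their values were seen. Some genes that the rule names are not reported here. The methods speak of pairs but do not say which samples formed them. The replicate number was therefore a block in an alternative fit and not in the main fit. Same-numbered samples deviated together (Pearson r over genes 0.477, 0.465 and 0.517). Replicates 1 and 2 crossed between the groups gave 0.462 and 0.480, so the shared deviation was that of replicate 3 against the rest. These values do not show which samples of replicates 1 and 2 form a pair. The 14 alternatives changed the pseudocount, filter, scaling, block, variance trend or samples.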

Additional observations from a re-analysis of the deposited data

How the results depend on the processing

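In limma 65 genes of 15391 passed an adjusted p of 0.05. The count was 38 with a pseudocount of 0.25, 29 with no variance trend, 229 with the replicate block and 7433 with replicates 1 and 2 only. Leaving out 1 library gave 0 to 280 genes. No gene passed (0) without replicate 1 or 2 of MSC (1357 and 1362 at an unadjusted p under 0.05) or without replicate 1 or 2 of TAC (1038 and 1029). There were 20 without TAC replicate 3 and 280 without MSC replicate 3. The cause was not tested. Among the 10 macrophage and C1q genes, 0 passed in 13 of the 14 alternatives and 5 with replicates 1 and 2 only. At an unadjusted p under 0.05 there was 1 gene, 3 with the replicate block, 5 with replicates 1 and 2 only, and 1 to 2 when 1 library was left out. Over all genes the counts were 1824 of 15391, 3136 of 15391 with the block and 8356 of 15680 with replicates 1 and 2 only. With replicates 1 and 2 only, 13 of 21 other macrophage genes (12 with MSC and 1 with TAC higher), 10 of 13 other complement genes and 3 of 5 ligand or partner genes passed, where 7433 of all 15680 did, and the replicate block called 2 complement genes. The block changed no other call in the lists of macrophage, complement, ligand and partner genes.

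The direction turned for 5 genes. With replicates 1 and 2 only, Adgre1 was -0.33 and Tyrobp -0.32. Over the fits that left out 1 library, Cd68 ran from -0.58 to 0.094, Adgre1 from -0.16 to 1.05, Tyrobp from 0.48 to 1.48 (no value without TAC replicate 3), C1qa from -0.42 to 0.14 and C1qb from -1.31 to 0.35. Csf1r, Mrc1, C1qc, Aif1 and Cd14 kept their direction in every alternative that gave them a value. The adjusted p of Mrc1 ran from 1.27e-08 to 0.453 over the alternatives. Another scaling moved the median of all genes by 0.02 on the log2 scale. Cd14, Tyrobp and Adgre1 rest on as few as 20, 0 and 0 reads in a library.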
